A study of Mus musculus with 6 samples.

Results

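Antiviral interferon-stimulated genes were compared between mouse regulatory T (Treg) cells with and without the transcription factor Batf. The list names 39 genes that type I interferon induces, without the GBP and IRG GTPases and without the interferon regulatory factors, which form families of their own. Of these, 36 had at least 1 probe set annotated to that gene alone, 59 probe sets in all, among 18193 measured genes. Isg15, Oas1g and Ifi44 had none and were not analysed here. The measured members comprise 3 Ifit genes, 5 of the oligoadenylate synthetase family, both Mx genes, 3 nucleic acid sensors, the ISG15 protease Usp18, 7 genes of signalling and transcription, 9 membrane and enzyme effectors, 2 other induced genes and 4 genes of class I antigen processing.

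RNA was measured on 3 arrays of Batf+/+ and 3 arrays of Batf-/- Treg cells. The cells were CD4+ and hCD2+, taken from lymph node and spleen of FoxP3hCD2 reporter mice on the C57BL/6 strain, without culture or treatment. Both groups carried the reporter, in which human CD2 marks Foxp3-expressing cells. The labels give no age or sex, do not limit the deletion of Batf to Treg cells, and do not say whether each array came from a different mouse, so a p-value here reflects how far these arrays vary, and that variation could be technical. Each level below is a log2 value centred on the middle one of the 3 Batf+/+ arrays, so it shows how an array stands against others for 1 gene and not how abundant the transcript was. In RNA of a cell population, a change in the number of cells that express a gene and a change in RNA per cell cannot be told apart.

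Type I interferon signals through its receptor and the kinases Jak1 and Tyk2 to transcription factors such as Irf9, which bind the interferon-stimulated response element (ISRE) in promoters. The induced proteins sense viral nucleic acid, block translation or degrade viral RNA, restrict virus entry and budding, and raise antigen presentation on MHC class I. Batf belongs to the AP-1 family, whose members bind TGANTCA, and it acts with Irf4 and Irf8 at composite AP-1 and IRF elements.

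Promoter stretches of 8 members are shown because they carry, close to the gene start, the ISRE core or the AP-1 motif discussed with the results. They come from RefSeq on build GRCm38.p6 and are written in the direction of transcription. Capitals mark the ISRE core, which is GAAA and GAAA with any 2 bases between them (or TTTC and TTTC on the other strand), and the AP-1 motif TGANTCA.
Ifit1, chr19:34640773-34640825, plus strand: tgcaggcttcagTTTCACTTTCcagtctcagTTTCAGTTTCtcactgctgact
Ifit3, chr19:34583361-34583491, plus strand: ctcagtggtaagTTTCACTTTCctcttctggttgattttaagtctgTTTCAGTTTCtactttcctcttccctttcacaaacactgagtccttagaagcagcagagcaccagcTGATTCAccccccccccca
Rsad2, chr12:26456521-26456584, minus strand: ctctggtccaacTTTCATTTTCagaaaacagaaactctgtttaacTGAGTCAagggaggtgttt
Oas3, chr5:120777695-120777780, minus strand: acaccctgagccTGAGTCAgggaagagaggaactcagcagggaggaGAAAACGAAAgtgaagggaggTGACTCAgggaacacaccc
Oas1a, chr5:120907526-120907557, minus strand: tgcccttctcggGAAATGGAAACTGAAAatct
Oas1g, chr5:120887614-120887643, minus strand: tgcccttctcggGAAATGGAAACTGAAAat
Stat2, chr10:128270264-128270297, plus strand: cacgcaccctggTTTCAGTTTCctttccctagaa
Ifitm3, chr7:141010831-141010861, minus strand: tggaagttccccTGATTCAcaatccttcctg

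Batf itself was 7.43-fold lower in Batf-/- cells by the limma fit (log2 difference -2.89, SE 0.19, adjusted p = 0.000202). Its levels on Batf-/- arrays 1, 2 and 3 were -3.13, -3.16 and -2.37, all below the Batf+/+ range of -0.13 to 0.14. Of 9 T and Treg cell markers 0 were called by limma, and 2 had a difference above 0, with a median of -0.12. In 4 of them all Batf-/- arrays lay below all Batf+/+ arrays, against 6.55% of all genes, and in 1 above them. Foxp3 had a difference of -0.12 (limma adjusted p = 0.892), Ikzf2, which encodes the Treg factor Helios, -0.51 (adjusted p = 0.0526), and Il2ra, the interleukin 2 receptor alpha chain, 0.21 (adjusted p = 0.394), the highest of the list. The centred values do not show whether a marker of another cell type was present or absent.

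Several antiviral genes had higher levels on all 3 Batf-/- arrays than on Batf+/+ arrays 1 and 3, while Batf+/+ array 2 had levels like those of the Batf-/- arrays or above them. With all 6 arrays, 0 of the 36 members passed an adjusted p below 0.05 in limma, where 0.313% of all genes were called higher and 0.83% lower. At an unadjusted p below 0.05, 6 members were higher and 2 lower, against 3.25% and 4.44% of all genes. The replicate block, which pairs arrays by their number, also called 0 members, with 0.5% of all genes called higher and 1.11% lower. Without Batf+/+ array 2, 4 members were called higher and 0 lower (Ifitm3, Oasl2, Oasl1 and Oas2), against 0.176% and 0.401% of all genes. At an unadjusted p below 0.05 these counts were 15 and 0, against 2.71% and 3.92%. That comparison rests on 2 Batf+/+ arrays, and the array to leave out was named with its values known, so it describes these arrays and is not independent evidence. Without both Batf+/+ array 2 and Batf-/- array 3, 3 members were called higher and 0 lower (0.165% and 0.456% of all genes). Among genes in the upper part of the SD, 3 members were called higher and 0 lower (1.01% and 2.09% of those genes). That SD contains the genotype difference, so the filter favours genes that differ and its count is no support for the members.

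The direction was shared by most members. With all arrays 29 of 36 members had a difference above 0 and the median log2 difference was 0.15, beside 51.8% of all genes above 0 and a median over all genes of 0.0047. Without Batf+/+ array 2, 33 of 36 members were above 0 and the median was 0.25. It was 0.09 without Batf+/+ array 3, 0.059 with array weights and 0.059 after quantile normalization. That normalization was run on the centred values, whose SD over all genes was 0.11 to 0.14 on Batf+/+ and 0.21 to 0.23 on Batf-/- arrays. Forcing equal distributions on such arrays shrinks Batf-/- differences, and that of Batf itself went from -2.89 to -2.02. The value after quantile normalization is therefore no fair check of the members. In 4 members all Batf-/- arrays lay above all 3 Batf+/+ arrays and in 2 members below them, against 5.5% and 6.55% of all genes. Leaving Batf+/+ array 2 out raised the first count to 21 of 36, against 9.23% of all genes, and left the second at 2, against 10.7%.

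**Figure D1:**
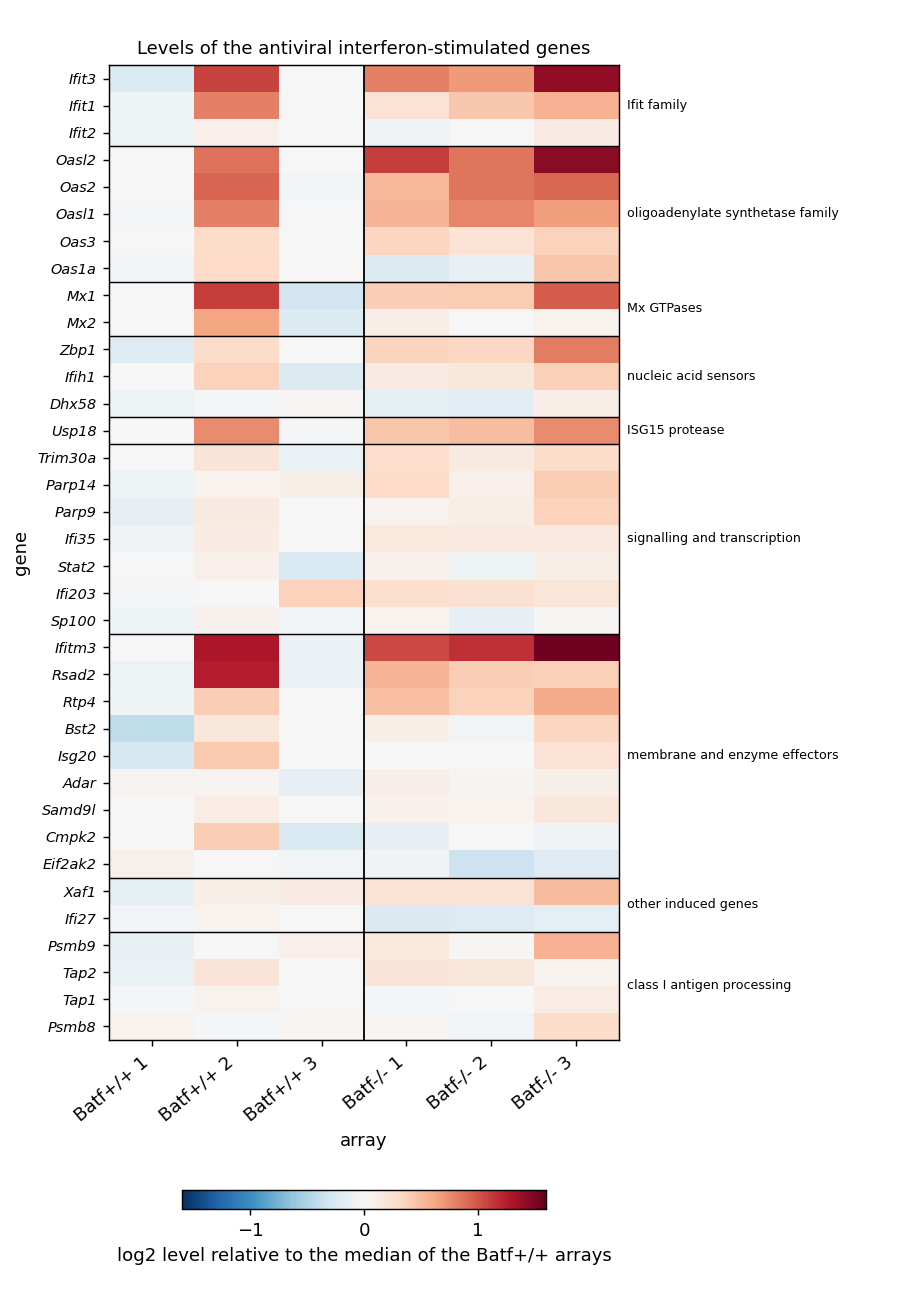
Colour gives the log2 level of each of the 36 measured members (rows, grouped by role) on each of the 6 arrays (columns), centred on the middle Batf+/+ array. Batf+/+ array 2 and the 3 Batf-/- arrays are red for Ifitm3, Oasl2, Ifit3 and Oas2, while Batf+/+ arrays 1 and 3 lie near 0, and among the genes of class I antigen processing Psmb9 reaches 0.55 on Batf-/- array 3.

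Batf+/+ array 2 stood apart from the other arrays of its genotype in these genes. It had the highest Batf+/+ level in 28 of the 36 members, against 27.5% of all genes, and exceeded the mean of arrays 1 and 3 by a median of 0.28, against -0.0041 over all genes. The excess was at least 0.5 in 12 members (33.3%), against 0.544% of all genes, and 8 members were among the 20 genes with the largest excess of all 18193. Ifitm3 (1.34), Rsad2 (1.34), Mx1 (1.26) and Ifit3 (1.198) led the members. Batf+/+ arrays 1 and 3 differed from each other by a median of 0.10 over the members, against 0.13 over all genes. In 11 members Batf+/+ array 2 lay above all 3 Batf-/- arrays, which is 30.6% of members, against 21.0% of all genes. Batf+/+ array 2 was singled out with its values known, so these counts describe that array and are not independent evidence.

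The 2 genes in which that array stood out most were heat shock genes. Hspa1a, an inducible heat shock chaperone, had levels of 4.51 on Batf+/+ array 2 and 4.87 on Batf-/- array 1, against -1.37 to 0.00 on the other 4 arrays. Hspa1b followed the same pattern, with 3.93 and 3.996 on those 2 arrays and -1.75 to 0.00 elsewhere. Next came Fosb (excess 1.57), Eps8l1 (1.44) and Klf4 (1.44), ahead of the members. In these, another Batf+/+ array was low: -2.07 for Fosb and -1.47 for Klf4 on array 3, and -2.45 for Eps8l1 on array 1. Among the Batf-/- arrays, array 3 was highest in most antiviral genes, 26 of 36, against 41.1% of all genes. The part of heat shock or handling in the interferon-stimulated levels was not tested.

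Array by array, the median over the 36 members was -0.04, 0.20 and 0.00 on Batf+/+ arrays 1, 2 and 3 and 0.17, 0.13 and 0.36 on Batf-/- arrays 1, 2 and 3. The genotypes overlapped through Batf+/+ array 2, which lay between Batf-/- arrays 1 and 3. Between arrays of the same number, Batf-/- exceeded Batf+/+ in 30 of 36 members for number 1 and in 33 of 36 for number 3, but in 7 of 36 for number 2. Over all genes these shares were 48.1%, 49.3% and 54.5%. The median difference of the members was 0.27, 0.36 and -0.08 for numbers 1, 3 and 2. Spread within the Batf+/+ group was a median SD of 0.18 over members, against 0.10 over all genes, and within the Batf-/- group 0.14 against 0.11.

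**Figure D2:**
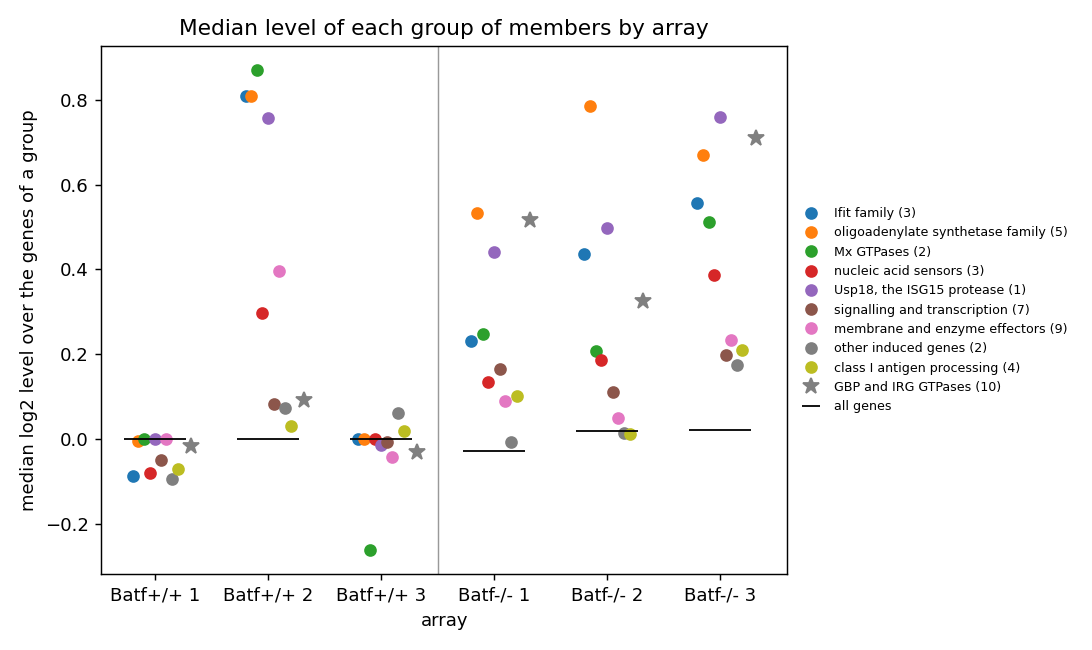
Each point is the median log2 level, over the genes of a role group, on 1 array, with the number of measured genes in parentheses. Stars give the GBP and IRG GTPases and black lines all genes. The Ifit, oligoadenylate synthetase, Mx and Usp18 points reach 0.76 to 0.87 on Batf+/+ array 2, where the star stays at 0.09.

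Nucleic acid sensors recognise foreign RNA or DNA and start the response. Zbp1, a sensor of Z-form nucleic acid that can trigger necroptosis, had levels of -0.21, 0.30 and 0.00 on Batf+/+ arrays 1, 2 and 3 and of 0.36, 0.33 and 0.82 on the Batf-/- arrays. It was 1 of the 4 members in which every Batf-/- array lay above every Batf+/+ array, by a narrow margin over array 2. The log2 difference was 0.47 ± 0.16 (SE, n = 3, limma adjusted p = 0.399), and its 2 probe sets gave 0.389 and 0.555. Ifih1, which encodes the RNA sensor MDA5, had levels of 0.00, 0.37 and -0.22 in Batf+/+ and 0.14, 0.19 and 0.39 in Batf-/- cells. Its groups overlapped, with a difference of 0.19 ± 0.14 (adjusted p = 0.949). Dhx58, which encodes the related regulator LGP2, had a difference of -0.05 ± 0.09 (adjusted p near 1), and its 3 probe sets lay between -0.115 and 0.078.

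The Ifit proteins bind viral RNA that lacks host cap marks and block its translation. Ifit3 had levels of -0.22, 1.09 and 0.00 on Batf+/+ arrays and 0.81, 0.68 and 1.41 on Batf-/- arrays. All Batf-/- arrays exceeded Batf+/+ arrays 1 and 3, and only array 3 of Batf-/- exceeded Batf+/+ array 2. Its difference was 0.68 ± 0.32 (limma adjusted p = 0.714, 95% interval -0.05 to 1.40), and 1.08 ± 0.21 without Batf+/+ array 2 (adjusted p = 0.0948). Ifit1 had levels of -0.06, 0.81 and 0.00 in Batf+/+ and 0.23, 0.44 and 0.56 in Batf-/- cells, so Batf+/+ array 2 was the highest of all 6. Its difference was 0.16 ± 0.21 (adjusted p near 1) and, without that array, 0.44 ± 0.12 (adjusted p = 0.268). Ifit2 varied little, between -0.09 and 0.13 over all arrays, with a difference of 0.03 ± 0.08. Ifit1 and Ifit3 each hold 2 ISRE cores in the stretches above, spelled TTTCACTTTC and TTTCAGTTTC in both genes.

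The oligoadenylate synthetases make short adenylate chains that activate RNase L, which cleaves RNA, and the Oasl proteins are relatives of the family. Oasl2 had levels of -0.0041, 0.87 and 0.00 in Batf+/+ and 1.11, 0.85 and 1.45 in Batf-/- cells, with only Batf-/- array 2 at the level of Batf+/+ array 2. The difference was 0.85 ± 0.24, 1.80-fold (SE, n = 3, limma adjusted p = 0.230, 95% interval 0.31 to 1.39). Without Batf+/+ array 2 it was 1.14 ± 0.16, 2.20-fold (adjusted p = 0.0302). Oasl1, which restrains translation of Irf7 in mouse, had levels of -0.03, 0.81 and 0.00 against 0.55, 0.78 and 0.67. Here Batf+/+ array 2 was the highest array, and the difference of 0.41 ± 0.20 (adjusted p = 0.749) became 0.68 ± 0.10 without it, 1.61-fold (adjusted p = 0.0347). Oas2 had levels of 0.00, 0.93 and -0.05 against 0.53, 0.86 and 0.92, again topped by Batf+/+ array 2. Its difference was 0.48 ± 0.24 (adjusted p = 0.766), and 0.80 ± 0.13 without that array, 1.74-fold (adjusted p = 0.0497, close to the threshold).

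The other synthetases differed less. Oas3 had levels of -0.0015, 0.29 and 0.00 against 0.34, 0.22 and 0.37, a difference of 0.21 ± 0.10 (adjusted p = 0.714). Oas1a had levels of -0.04, 0.30 and 0.00 against -0.22, -0.12 and 0.44. Its Batf-/- arrays spread to both sides of the Batf+/+ arrays 1 and 3, and the difference was -0.06 ± 0.17 (adjusted p near 1). The printed stretches of Oas1a and Oas1g are alike from the first base to the end of the overlapping ISRE cores, and since the genes are near copies the Oas1a value is uncertain: its probe set may also read Oas1g.

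Mx proteins are dynamin-like GTPases that trap viral nucleocapsids, and C57BL/6 mice are known to carry a defective Mx1 gene. Mx1 had levels of 0.00, 1.11 and -0.31 in Batf+/+ and 0.39, 0.41 and 0.97 in Batf-/- cells, with Batf+/+ array 2 the highest. The difference was 0.32 ± 0.32 (limma adjusted p = 0.991) and 0.74 ± 0.19 without that array (adjusted p = 0.239). Mx2 separated from Mx1 on the Batf-/- arrays, where its levels were 0.10, 0.01 and 0.06, although both were raised on Batf+/+ array 2, at 0.63 for Mx2. The Mx2 difference was -0.08 ± 0.19 with all arrays and 0.17 ± 0.10 without Batf+/+ array 2 (adjusted p = 0.940). Usp18 removes ISG15 from proteins and damps receptor signalling. Its levels of 0.00, 0.76 and -0.01 against 0.44, 0.50 and 0.76 gave a difference of 0.32 ± 0.20 (adjusted p = 0.886), and 0.57 ± 0.12 without Batf+/+ array 2 (adjusted p = 0.111).

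**Figure D3:**
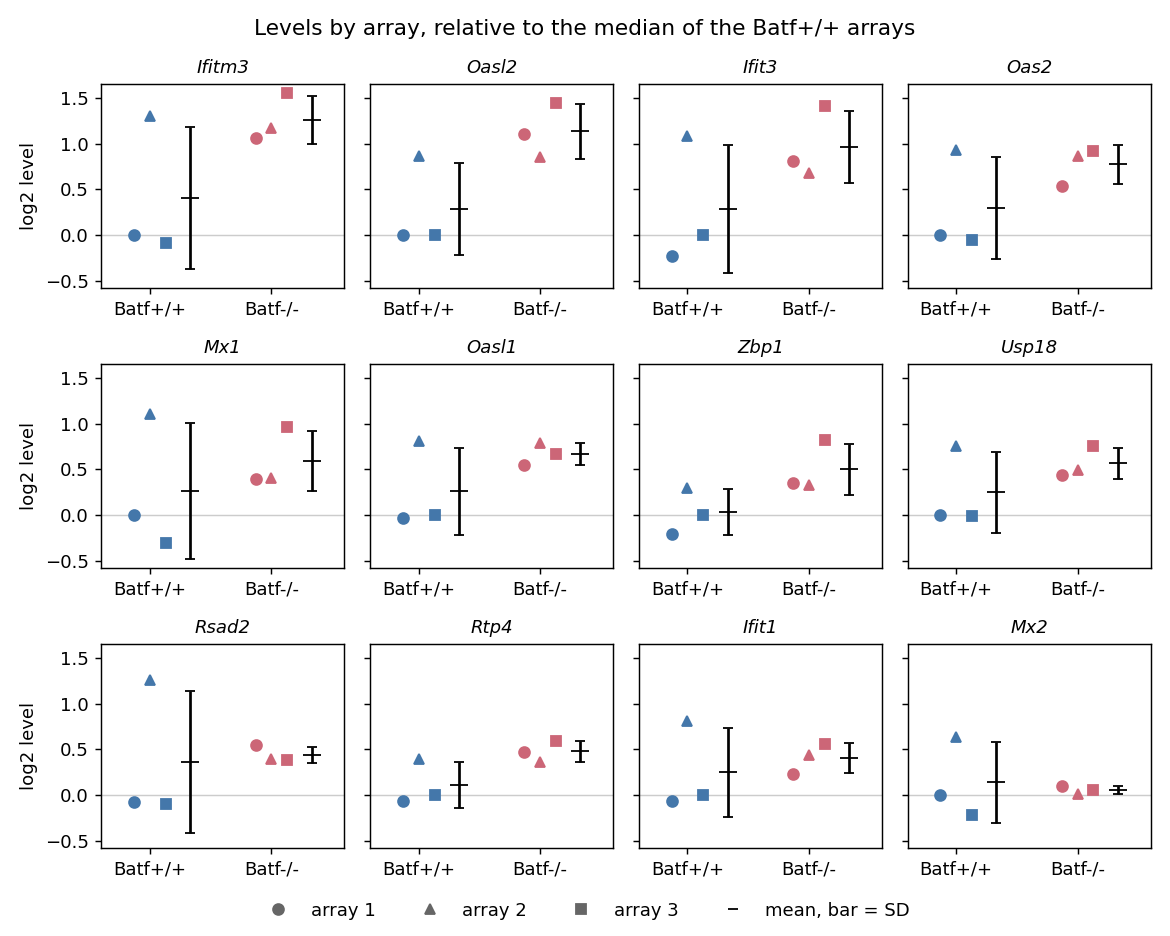
Log2 levels on each array, centred on the middle Batf+/+ array, for the 11 members with the largest difference without Batf+/+ array 2 and for Mx2. Symbols mark arrays 1, 2 and 3, and the black bar is the mean with its SD (n = 3). The Batf+/+ triangle (array 2) lies far above the other 2 Batf+/+ symbols in most panels, and in the Mx2 panel all Batf-/- symbols lie between 0.01 and 0.10.

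Among membrane and enzyme effectors, Ifitm3, which blocks virus entry from endosomes, had with Oasl2 the largest difference of the members with all arrays, and Oasl2 was ahead without Batf+/+ array 1 or 3, without Batf-/- array 2, with array weights (0.551 against 0.498) and after quantile normalization (0.422 against 0.372). The levels of Ifitm3 were 0.00, 1.30 and -0.09 on Batf+/+ arrays and 1.06, 1.17 and 1.55 on Batf-/- arrays, so all Batf-/- arrays were more than 1 log2 unit above Batf+/+ arrays 1 and 3, and array 2 lay among them. The difference was 0.86 ± 0.33, 1.81-fold (SE, n = 3, limma adjusted p = 0.494, 95% interval 0.12 to 1.59). Without Batf+/+ array 2 it was 1.30 ± 0.15, 2.47-fold (adjusted p = 0.0115). Of the 4 members called then, Ifitm3 was the 1 that also passed when every probe set was adjusted on its own (adjusted p = 0.0400), with 0.0486% of probe sets called higher. Oasl2, Oasl1 and Oas2, also measured by 1 probe set each, had adjusted p values of 0.0825, 0.0928 and 0.122 in that larger family of tests. With all arrays 0 of the 59 member probe sets were called, against 0.175% of probe sets higher and 0.538% lower.

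Rsad2 and Cmpk2 are neighbouring genes, viperin and a nucleotide kinase, that respectively make an antiviral nucleotide and supply its precursor. Rsad2 had levels of -0.08, 1.25 and -0.10 in Batf+/+ and 0.54, 0.40 and 0.38 in Batf-/- cells. Batf+/+ array 2 was far above all other arrays, and the difference of 0.08 ± 0.31 (adjusted p near 1) became 0.53 ± 0.09 without it (adjusted p = 0.0687). Cmpk2 had levels of 0.00, 0.40 and -0.25 against -0.13, -0.0049 and -0.05, so its Batf-/- arrays stayed with Batf+/+ arrays 1 and 3 in the mean of its 2 probe sets. Neither probe set did so alone. In 1 the Batf-/- arrays (-0.33, -0.23 and -0.14) lay below all Batf+/+ arrays. In the other they (0.06, 0.22 and 0.04) lay above Batf+/+ arrays 1 and 3. The differences of the 2 probe sets were -0.28 and 0.05, of opposite sign. Rtp4, which dampens the interferon response in mouse, had levels of -0.07, 0.40 and 0.00 against 0.48, 0.36 and 0.60, with 2 probe sets at 0.36 and 0.37. Its difference was 0.37 ± 0.13 (adjusted p = 0.406).

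None of the other effectors passed the test. Bst2, the tetherin that holds budding virus, gave 0.21 ± 0.16 and Isg20, an exonuclease, 0.02 ± 0.16, and both varied among the Batf+/+ arrays, where array 2 exceeded the mean of the others by 0.38 and 0.55. Samd9l, a translation inhibitor, gave 0.07 ± 0.08. Adar, which edits adenosine in RNA, gave 0.09 ± 0.08, with all Batf-/- arrays just above the Batf+/+ arrays (0.049 on the lowest Batf-/- array and 0.047 on the highest Batf+/+ array). Eif2ak2, the kinase PKR that halts translation on viral RNA, lay lower, with levels of 0.08, 0.0023 and -0.04 against -0.05, -0.33 and -0.20. Its difference was -0.21 ± 0.09 (limma adjusted p = 0.632). This rested on 1 of its 3 probe sets, which gave -0.596, -0.020 and -0.008, and with the median of the probe sets the difference was -0.026.

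Genes of signalling and transcription had small differences, between -0.0061 and 0.24, with 6 of 7 above 0. Parp14, an ADP-ribosyltransferase, gave 0.24 ± 0.10 (adjusted p = 0.580), and its partner in the family, Parp9, 0.17 ± 0.11. Trim30a, a mouse regulator of inflammatory signalling, gave 0.21 ± 0.10, and Ifi35, an interferon-induced leucine zipper protein, 0.13 ± 0.08 with all Batf-/- arrays (0.15 to 0.17) above all Batf+/+ arrays (-0.05 to 0.13). Stat2, the transducer of the type I signal, gave 0.09 ± 0.10, and the DNA sensor family gene Ifi203 0.11 ± 0.11. The nuclear body protein Sp100 gave -0.0061 ± 0.08, with 2 probe sets of opposite sign (-0.077 and 0.064).

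The remaining induced genes went opposite ways. Xaf1, which promotes apoptosis, had levels of -0.14, 0.09 and 0.13 against 0.21, 0.23 and 0.51, without overlap, and a difference of 0.29 ± 0.11 (limma adjusted p = 0.485). Ifi27 had levels of -0.04, 0.06 and -0.01 against -0.23, -0.21 and -0.16, also without overlap, and its 2 probe sets gave -0.205 and -0.192. The difference of -0.20 ± 0.07 did not pass the test (adjusted p = 0.446). Eif2ak2 and Ifi27 were the 2 members whose Batf-/- arrays all lay below the Batf+/+ arrays, Eif2ak2 only in the mean of its 3 probe sets.

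Genes of class I antigen processing moved little. Tap1 and Tap2 form the peptide transporter of the endoplasmic reticulum, and Psmb8 and Psmb9 are immunoproteasome subunits. Their differences were 0.03, 0.11, 0.08 and 0.25, with limma adjusted p values from 0.796 upward. The 4 probe sets of Tap1 disagreed in sign, from -0.133 to 0.182, and the 2 of Psmb8 gave 0.019 and 0.132. Psmb9 was higher on Batf-/- array 3 (0.55) than on Batf-/- arrays 1 and 2 (0.17 and 0.01). The excess of Batf+/+ array 2 had a median of 0.05 over these 4 genes, against 0.84 over the 3 Ifit genes and 0.82 over the 5 oligoadenylate synthetase genes.

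**Figure D4:**
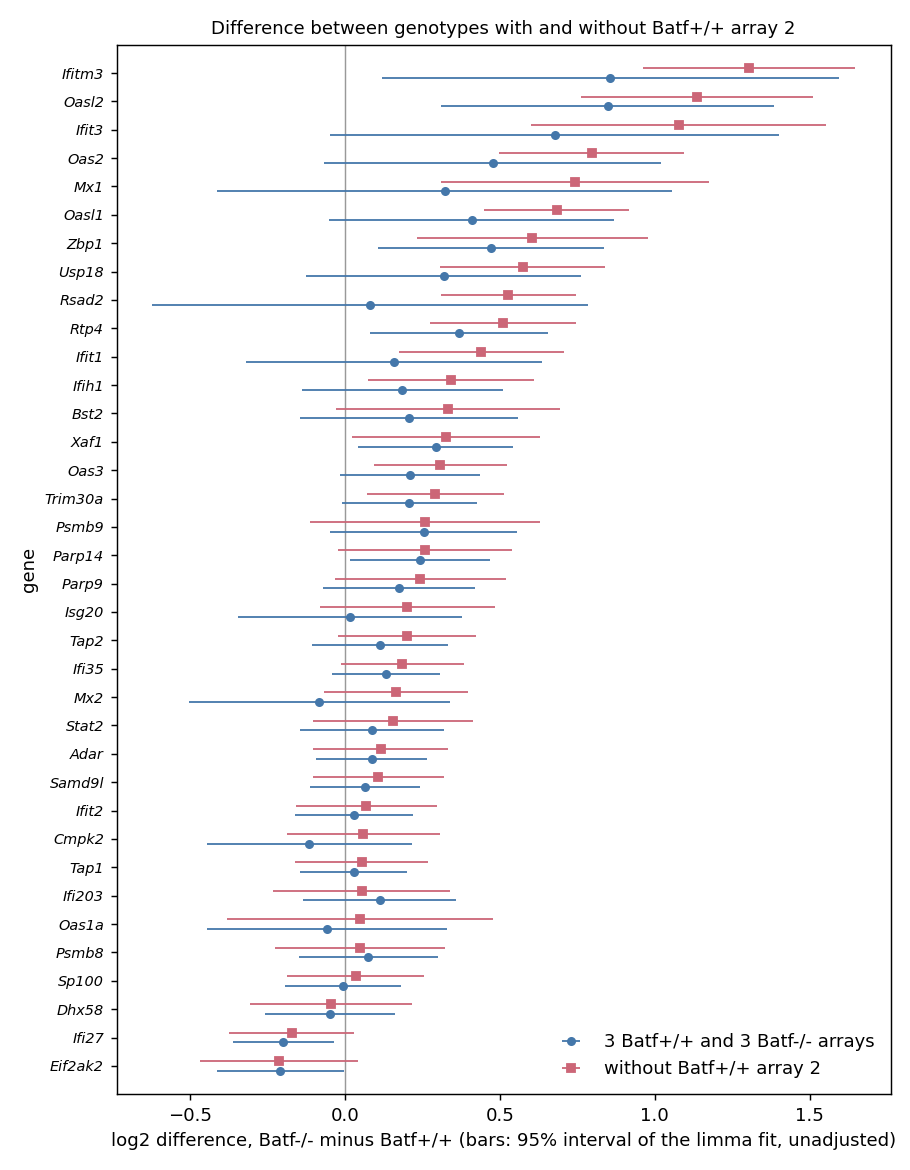
Log2 difference of each measured member, Batf-/- minus Batf+/+, with the unadjusted 95% interval of the limma fit, for all 6 arrays (circles) and without Batf+/+ array 2 (squares). Squares lie to the right of circles for most members, and their intervals are narrower for Rsad2, Mx1 and Ifitm3.

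Promoters of 25 of the 36 measured members were in the RefSeq table. Within the 250 bases before the start, on either strand, the ISRE core stood in 9 of these 25 genes (36%), against 3.1% of 14452 measured genes with a promoter in the table. The AP-1 motif TGANTCA stood in 7 (28.0% against 6.7%). Those 7 were Ifi203, Ifi35, Ifit3, Ifitm3, Oas3, Rsad2 and Xaf1. Another motif that was searched, TTCNNNGAA, stood in 6 of the 25 (24.0% against 7.4%). Of AP-1 and IRF composites, only the form TTTC with TGANTCA 4 bases after it was searched. That form stood in 0 of the 25 and in 0.1% of measured genes. No match of the ISRE core overlapped one of the AP-1 motif. The 9 members with an ISRE core had a median difference of 0.16 with all arrays and 0.31 without Batf+/+ array 2, and the 16 without it 0.08 and 0.15. Both ranges were wide: Ifitm3, Oasl2 and Oasl1 had no ISRE core in this window, while Oas1a, with 2 cores, had a difference near 0.

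Other genes of the pathway were counted over lists of 110 genes, of which 92 were measured. With all arrays 1 was called higher and 1 lower, against 0.313% and 0.83% of all genes, both among 52 measured interferon-stimulated genes outside the members. Gm4951, an interferon-inducible GTPase gene, had levels of -0.24, 0.00 and 0.11 against 1.17, 0.83 and 2.004. Batf+/+ array 2 lay between the other Batf+/+ arrays, and the gene rose 2.60-fold (1.38 ± 0.25, limma adjusted p = 0.0418), with an adjusted p of 0.144 without that array. Cxcl10, a chemokine induced by interferons that attracts Cxcr3-bearing cells, went the opposite way. Its levels were 0.00, 0.59 and -0.46 against -1.32, -1.61 and -1.47, and it fell 2.85-fold (-1.51 ± 0.22, adjusted p = 0.0131), also without Batf+/+ array 2 (adjusted p = 0.0149). Ms4a4c, a membrane protein of the Ms4a family, had a difference of 0.72 ± 0.15 (adjusted p = 0.0759), which passed with the replicate block (adjusted p = 0.0290).

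Upstream of the members, 0 of 13 receptor and signalling genes passed, with a median difference of -0.02. The largest differences there were those of the kinase Jak1 (-0.23), and of Irf7 (0.21) and Irf1 (0.20), transcription factors of the interferon response. Irf7, itself induced by interferon, had levels of -0.03, 0.47 and 0.00 against 0.35, 0.26 and 0.46, with Batf+/+ array 2 at the level of Batf-/- array 3. Of 5 measured interferon genes 0 passed: Ifng had a difference of 0.50 ± 0.26 (adjusted p = 0.774), Ifna1 0.14 and Ifna2 0.13, while Ifnb1 had 0.06. Among 12 genes that induce interferon 0 passed, and Tlr7 (0.23), Tlr9 (0.18) and Cgas (-0.16), sensors of RNA or DNA, differed most. Of 10 further genes of class I presentation 0 passed, the largest differences being those of the proteasome activator Psme1 (0.13), the peptide editor Tapbpl (0.13) and the immunoproteasome subunit Psmb10 (0.10).

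The GBP and IRG GTPases, interferon-inducible proteins that attack pathogen vacuoles, give a comparison with another interferon family. In 9 of 10 measured genes all Batf-/- arrays lay above all 3 Batf+/+ arrays, against 5.5% of all genes, and their median on Batf+/+ array 2 was 0.09, where that of the antiviral members was 0.20. Still, array 2 was the highest Batf+/+ array in 7 of these 10 genes, against 27.5% of all genes. Its median excess over the mean of Batf+/+ arrays 1 and 3 was 0.15 in them, against 0.28 over the members and -0.0041 over all genes. Gbp2b rose 4.06-fold (limma adjusted p = 0.00013, and 0.00181 without Batf+/+ array 2), and whether the families differ was not tested.

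By the shape of their profile over the 6 arrays, the genes outside all lists most like the mean of the members were 8030474K03Rik (Pearson r = 0.854), 4933402J15Rik (0.792), the Schlafen gene Slfn4 (0.79), B430306N03Rik (0.787), the growth arrest gene Gadd45g (0.777), the granule protein Nkg7 (0.773), the interleukin 1 receptor antagonist Il1rn (0.773) and the BAFF receptor Tnfrsf13c (0.772), among 535 genes with an SD of at least 0.3. These correlations over 6 arrays describe likeness only. Gadd45g and B430306N03Rik were called higher in Batf-/- cells (0.63, limma adjusted p = 0.0283, and 0.64, adjusted p = 0.0423), the second with an adjusted p of 0.0558 without Batf+/+ array 2.

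Markers of other cell types were followed on the same arrays. On Batf+/+ array 2 the median of the lists for B cells, plasmacytoid and conventional dendritic cells, monocytes and macrophages, neutrophils, NK cells, CD8 T cells and erythroid cells lay between 0.00 and 0.09. On Batf-/- array 3, the highest Batf-/- array in most members, the medians of 5 monocyte and macrophage markers (0.43) and 5 B cell markers (0.34) were the highest of all arrays. So were those for erythroid cells (0.25), conventional dendritic cells (0.18) and CD8 T cells (0.08), but not those for plasmacytoid dendritic cells, neutrophils and NK cells. Across these lists the share of markers with a difference above 0 ran from 25% (4 NK cell markers) to 100% (2 CD8 T cell markers). Over all genes it was 51.8%. Of 6 markers listed for plasmacytoid dendritic cells, which are strong producers of interferon, 6 had a difference above 0, with a median of 0.14. Ly6d, which B cell precursors also express, rose by 0.69 (limma adjusted p = 0.0449, and 0.180 without Batf+/+ array 2), while Siglech, the more specific marker, had 0.12 (adjusted p = 0.935). No other marker of these lists was called with all arrays, but the replicate block also called Irf8, a factor of dendritic cell development (0.50, limma adjusted p = 0.0919, and 0.0306 with the block), and it lowered the adjusted p of Ly6d to 0.00697. The part of other cells in the levels of the members was not tested.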

How the data were processed

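The authors deposited RMA values. Their scale was read as log2 here. The tool is named in the submitters' processing notes, without a version, and the base of the log is not given in the sources used here, so the deposited log2 unit is an assumption. In all 45101 rows the middle of the 3 Batf+/+ values is exactly 0, a centring that no label describes. It leaves differences within a gene as they were and removes absolute levels, so signal over background is unknown and no filter on low values was possible. Per the labels, biotin-labelled total RNA was hybridised. Scan dates and slides were not used here.

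Probe sets annotated to 1 gene (34945, of which 34741 matched a RefSeq gene by Entrez identifier with 0 symbols changed) were averaged per gene. The 932 with several genes, 9160 with none listed and 64 controls were left out. Genotypes were compared over 18193 genes by limma 3.58.1 in R 4.3.3 (lmFit and eBayes, genotype as the only term) with Benjamini-Hochberg adjustment over all genes, called below 0.05. The script was tested on simulated data. The members and lists were chosen with earlier results of these data known. All members are described. From the other pathway lists the text names called genes and the 3 largest differences of each list, and outside all lists the 8 genes with the profile most like the mean of the members. Other genes named (Batf, Foxp3, Il2ra, Ikzf2, Ifnb1, Ly6d, Irf8, Siglech, Gbp2b, Hspa1a, Hspa1b, Fosb, Eps8l1, Klf4) are checks or were picked with their values in view. The 3 arrays per genotype limit the precision.

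Arrays of the same number deviated together from their group means (correlations across genes of 0.407, 0.154 and 0.413 for numbers 1, 2 and 3, each above the minimum of 0.1), and this check of the values, not a label, is why equal numbers were treated as pairs. Alternatives were leaving out each array, the replicate block, array weights, 2 other normalizations, other rules for probe sets, a filter on SD and robust moderation.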

Additional observations from a re-analysis of the deposited data

How the results depend on the processing

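The number of called members changed from 0 to 4 higher without Batf+/+ array 2, to 3 higher without both that array and Batf-/- array 3 (an alternative chosen after seeing the data, which called Ifitm3, Oasl2 and Ifit3) and to 3 higher when only the 9096 genes with the larger SD were tested (Ifit3, Oasl2 and Ifitm3). That filter uses an SD that contains the genotype difference, and its fit gave Batf an adjusted p of 1.13e-72, far below 1.98e-05, the lowest of the other alternatives. By probe set the number went from 0 to 1 without Batf+/+ array 2. The number of called genes was 208, and 81 after quantile normalization of the centred values, which shrinks Batf-/- differences. It was 113 without Batf+/+ array 2 and Batf-/- array 3. With 1 array left out it was 105 to 192, lowest without Batf+/+ array 2 and next lowest, 109, without Batf+/+ array 1. With the replicate block 293 genes were called, 91 of them higher where the fit without it had 57. The block called 0 members and changed no call of a member. Batf stayed past the threshold in every alternative run. Of the 36 member differences, at most 5 changed sign in any alternative (with array weights), all without a call. The median difference of the members stayed above 0 in all of them, from 0.059 to 0.251. Centred values leave signal over background unknown.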
